A study of Mus musculus with 6 samples.

Results

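Mitochondrial ribosomal proteins were examined in macrophages of regenerating mouse muscle. The genes were taken by name, as all probe sets with a single gene symbol that starts with Mrpl or Mrps and a digit, and each symbol was represented by its probe set of highest mean over all 6 arrays. This gave 77 of the 19938 genes measured on the arrays, 48 named for the large subunit and 29 for the small subunit. No measured difference between samples was used to choose them.

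The samples were 3 Ly6C- F4/80high and 3 Ly6C+ F4/80low macrophage samples, 1 of each from each of 3 mice. All mice were of the strain B6.129P2-Lyzstm1(cre)Ifo/J, which carries Cre at the lysozyme locus, a locus active in myeloid cells, and no animal without this allele was among the samples. The tibialis anterior muscle was injured with cardiotoxin, a snake venom toxin that kills muscle fibres, and was taken on day 2. Leukocytes bearing CD45 were enriched on magnetic beads and sorted by surface Ly6C and F4/80, and 150 ng of RNA was labelled for each array. The labels give no age. Differences below are given in log2 units of the deposited values, with the Ly6C+ F4/80low mean taken from the Ly6C- F4/80high mean, and a gene was called higher or lower at a limma adjusted p under 0.05 over all genes.

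Mitochondria keep a small genome that encodes core subunits of the respiratory chain and ATP synthase, together with the RNAs of their own ribosome. All proteins of that ribosome are encoded in the nucleus, made in the cytosol and imported. Some descend from bacterial ribosomal proteins, and others are found only in mitochondria. A mitochondrial ribosome therefore needs RNA from one genome and proteins from the other, and its proteins are synthesised by the cytosolic ribosome, which has a separate set of ribosomal proteins.

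The sort was visible in the arrays. Ly6c1 and Ly6c2 share a pair of probe sets, which averaged 8.02 and 8.08 in Ly6C- F4/80high samples and 11.4 and 11.3 in Ly6C+ F4/80low samples, and Adgre1, which encodes F4/80, had a difference of 0.73. Ptprc, which encodes CD45, averaged 9.72 in Ly6C- F4/80high samples and 10.36 in Ly6C+ F4/80low samples. It was called lower (-0.64, SE 0.07, limma adjusted p = 0.000127). All 9 measured macrophage markers lay on at least 1 array above the background of 5.44, the level that 95% of the olfactory and vomeronasal receptor genes stayed under. Of the 9, 3 were called higher (33.3%) and 3 lower (33.3%), where 19.5% and 14.3% of all genes were. Mertk (1.57), Adgre1 and Cd68 (0.31) were called higher, and Cd14 (-0.42), Fcgr1 (-0.28) and Itgam (-0.23) lower. The median difference of the list was -0.18. The summed linear level of the 8 endothelial and fibroblast markers was 471 to 501 in Ly6C- F4/80high samples and 705 to 821 in Ly6C+ F4/80low samples, and that of the 7 dendritic cell markers was 314 to 330 in Ly6C- F4/80high samples and 460 to 484 in Ly6C+ F4/80low samples. For the 10 neutrophil markers it was 1010 to 1036 in Ly6C- F4/80high samples and 1017 to 1078 in Ly6C+ F4/80low samples. The brightest of these was Csf3r, which averaged 9.27 and 9.30. Of the 10, 0 were called higher and 2 lower, where 19.5% and 14.3% of all genes were. The 2 called lower were S100a9 (-0.70), above background only in the Ly6C+ F4/80low samples, and Cxcr2 (-0.85), under background on all 6 arrays. The 9 T cell and NK cell markers, 3 of them above background on any array, summed to 197 to 219 in Ly6C- F4/80high samples and 232 to 266 in Ly6C+ F4/80low samples. The 8 muscle and satellite cell markers summed to 422 to 453 in Ly6C- F4/80high samples and 451 to 463 in Ly6C+ F4/80low samples. Of the lists of other cells, the 5 B cell markers alone had higher sums in Ly6C- F4/80high samples, with 240 to 260 in Ly6C- F4/80high samples and 210 to 226 in Ly6C+ F4/80low samples. Of these 5 only Cd79b was called higher (0.53), and the median difference of the list was -0.09. The part of other cells in the results below was not tested.

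Promoters of 68 of the 77 members were found in the RefSeq promoter table of GRCm38.p6, each with 250 bases before the gene's start and 50 after it. They were searched on both strands for motifs of factors known to act on nuclear genes of mitochondria. NRF1 (nuclear respiratory factor 1), the ETS factor GABP and YY1 are such factors. The NRF1 motif, GCGC and TGCGC with any 1 base between them, was found in 13 of the 68 members' promoters, or 19.1%, and in 5.19% of the 27025 genes of the table, each gene counted once over all its promoters. Of all 32851 single promoters 4.60% held it. The ETS motif ACTTCCGG was found in 12 (17.6%, against 4.31% of genes and 3.89% of single promoters). The YY1 motif AAGATGGCG was found in 8 (11.8%, against 1.64% of genes and 1.40% of single promoters). Any of the 3 was found in 31 of 68 members (45.6%) and in 10.3% of all genes of the table. None of the 3 contains another, and a match is a match of letters only. The 4 promoters below show a match of each motif within the 250 bases before the start. Mrpl51 and Mrps21 have the largest differences among the members with the ETS and the NRF1 motif. Mrpl36 shows the YY1 motif and, at 0.27, has the smallest difference of the 8 members with it. In Mrpl42, which has the largest of these at 1.03, the match does not lie wholly within these 250 bases. Mrpl45 has a pair of NRF1 matches. Each is printed 5′ to 3′ on the gene's strand up to the start, with the motif in capitals. They lie at chr6:125191950-125192199 (plus strand, Mrpl51, ETS), chr3:95871515-95871764 (minus strand, Mrps21, NRF1), chr13:73330759-73331008 (plus strand, Mrpl36, YY1) and chr11:97315466-97315715 (plus strand, Mrpl45, NRF1).
Mrpl51: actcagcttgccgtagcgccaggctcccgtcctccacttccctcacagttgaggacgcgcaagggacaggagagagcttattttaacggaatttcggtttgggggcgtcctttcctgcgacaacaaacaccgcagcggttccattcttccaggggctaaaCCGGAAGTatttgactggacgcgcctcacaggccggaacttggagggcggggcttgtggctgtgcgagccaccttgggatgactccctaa
Mrps21: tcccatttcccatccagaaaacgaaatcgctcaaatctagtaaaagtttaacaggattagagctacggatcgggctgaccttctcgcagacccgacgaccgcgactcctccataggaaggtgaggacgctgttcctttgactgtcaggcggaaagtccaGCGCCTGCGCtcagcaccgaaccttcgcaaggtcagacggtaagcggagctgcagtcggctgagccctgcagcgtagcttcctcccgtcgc
Mrpl36: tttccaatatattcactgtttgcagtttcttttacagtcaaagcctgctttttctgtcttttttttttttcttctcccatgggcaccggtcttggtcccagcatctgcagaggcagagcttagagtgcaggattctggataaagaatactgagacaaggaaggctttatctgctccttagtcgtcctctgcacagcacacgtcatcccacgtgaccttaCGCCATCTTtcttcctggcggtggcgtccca
Mrpl45: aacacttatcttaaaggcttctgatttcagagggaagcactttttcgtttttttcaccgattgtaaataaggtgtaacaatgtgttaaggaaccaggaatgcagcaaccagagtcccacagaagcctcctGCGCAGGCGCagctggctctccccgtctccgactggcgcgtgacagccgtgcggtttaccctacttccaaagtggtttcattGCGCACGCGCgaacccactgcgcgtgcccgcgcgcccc

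Most mitochondrial ribosomal protein genes were higher in the Ly6C- F4/80high macrophages, by small amounts. Of the 77 members 51 were called higher, where 19.5% of all genes were, and 1 was called lower, where 14.3% were. The other 25 were not called. The median difference of the members was 0.34, with 0.36, 0.35 and 0.39 in the 3 mice, beside -0.06 over all genes. In 59 members all 3 Ly6C- F4/80high arrays lay above all 3 Ly6C+ F4/80low arrays, which 24.4% of all genes also did. In 2 members they lay below, as in 23.6% of all genes. On the probe sets used here a difference of at least 2-fold was called for 3 members, Mrps36, Mrpl51 and Mrpl42. The other probe set of Mrpl51 gave 0.87, which is under 2-fold. Only 4 members had a difference above the 95th percentile of all genes. Without the arrays of mouse 3 the count called higher was 29, where 13.4% of all genes were. With all arrays scaled to a common median 57 members were called higher and 0 lower, where 24.0% of all genes were called higher and 8.71% lower. The common median added calls of Mrpl2, Mrpl44, Mrpl47, Mrpl50, Mrps2 and Mrps7, and ended that of Mrpl33. Quantile normalization ended the calls of Mrpl4, Mrpl10, Mrpl12, Mrpl20, Mrpl36, Mrpl38, Mrpl39, Mrps10, Mrps24 and Mrps28, and added Mrpl44. Cyclic loess ended the same calls except those of Mrpl12 and Mrps28, and also added Mrpl44.

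**Figure D1:**
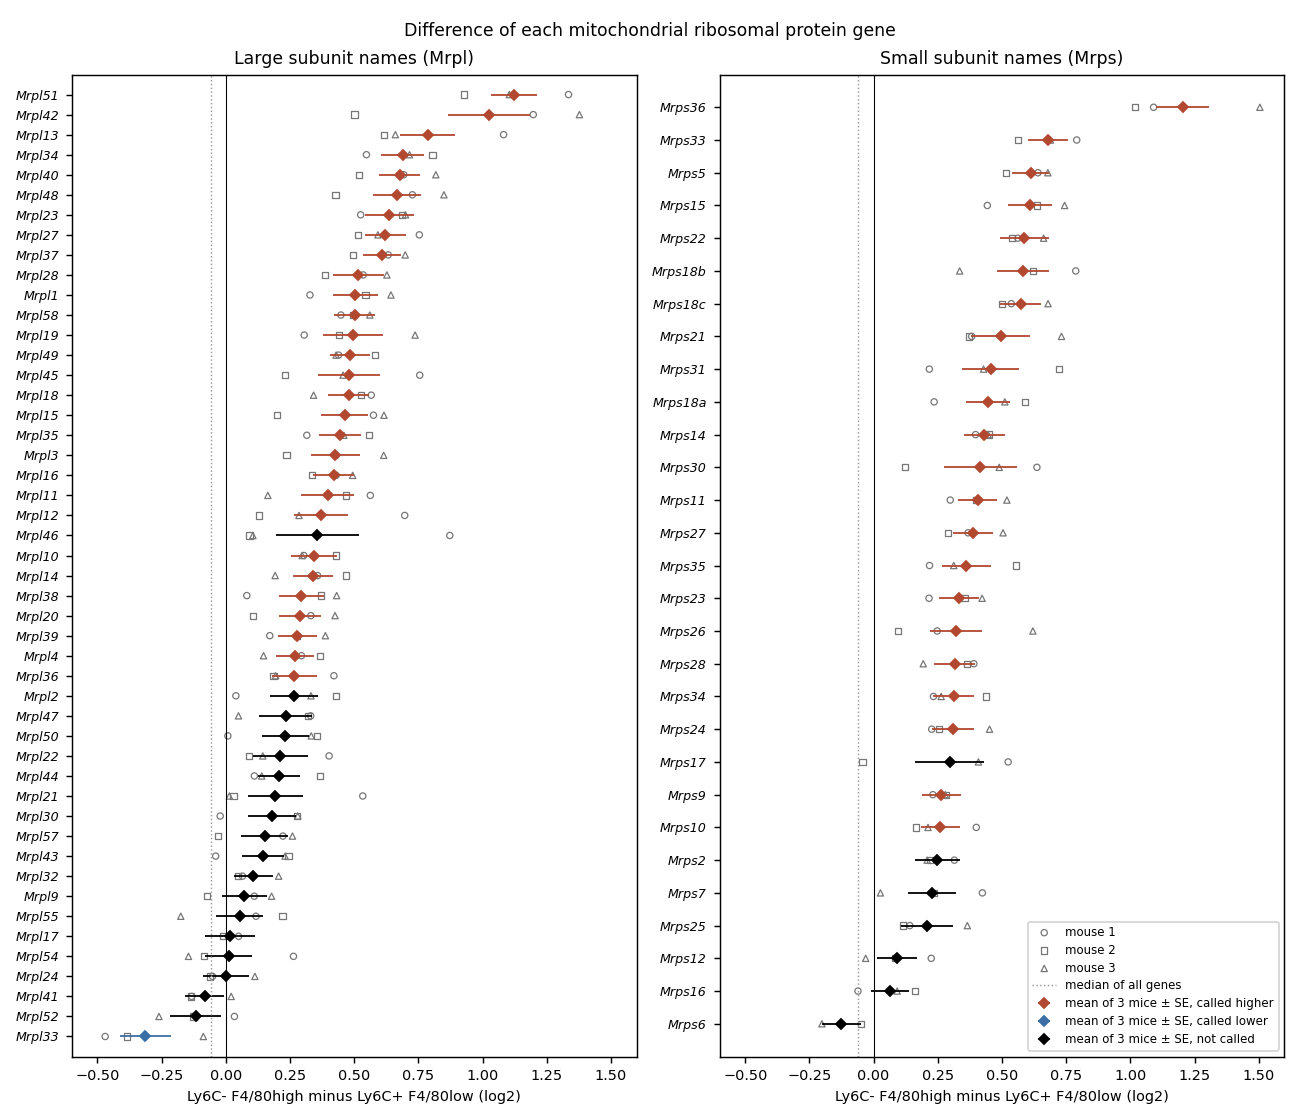
Difference of each of the 77 members (x axis, log2, Ly6C- F4/80high minus Ly6C+ F4/80low), with the members named for the large subunit at left and for the small subunit at right. Open symbols are the 3 mice, filled diamonds the mean with its SE, coloured by the limma call, and the dotted line is the median of all genes, -0.06. Most diamonds lie at positive values, and Mrpl33 is the only member called lower.

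The members were well expressed genes, and 74 of them lay in the upper 50% of all genes by level. When the 50% of genes of lowest level were left out, 54 of the remaining 74 members were called higher, where 38.0% of all remaining genes were. The median difference of all genes was 0.09 among these. The median level of the members was 7.66, 7.61 and 7.54 in the Ly6C- F4/80high samples of mice 1, 2 and 3, against 7.35, 7.36 and 7.28 in their Ly6C+ F4/80low samples. All 3 Ly6C- F4/80high samples lay above all 3 Ly6C+ F4/80low samples. Arrays compare shares of the labelled RNA, so fewer cells of a type and less RNA per cell cannot be told apart.

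**Figure D2:**
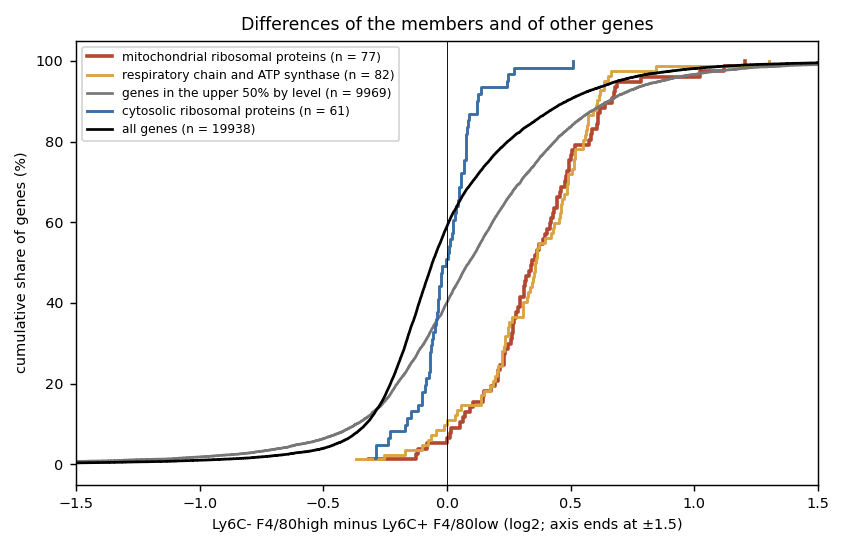
Cumulative share of genes (y axis, %) by difference (x axis, log2, Ly6C- F4/80high minus Ly6C+ F4/80low) for the 77 mitochondrial ribosomal proteins, 82 nuclear subunits of the respiratory chain and ATP synthase, 61 cytosolic ribosomal proteins, the 9969 genes in the upper 50% by level and all 19938 genes. The curves of the first 2 groups lie to the right of the others, with medians of 0.34 and 0.36, and the curve of the cytosolic ribosomal proteins is steep around its median of 0.00.

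Members of both subunits were called higher, beside 19.5% of all genes called higher and 14.3% called lower. Of the 48 members named for the large subunit 29 were called higher, 1 lower and 18 neither, with a median of 0.34. Of the 29 named for the small subunit 22 were called higher, 0 lower and 7 neither, with a median of 0.36. By origin, 29 of the 46 proteins with bacterial homologues were called higher and 1 lower (median 0.31), and 19 of the 28 found only in mitochondria were called higher and 0 lower (median 0.36). This split leaves out Mrps18a, Mrps18b and Mrps36, which were listed apart and were all called higher.

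Among proteins specific to mitochondria, Mrpl51 and Mrpl42 of the large subunit had the largest differences. Mrpl51 was at 8.32, 8.04 and 8.22 in the Ly6C- F4/80high samples of mice 1, 2 and 3, against 6.99, 7.11 and 7.12 in the Ly6C+ F4/80low samples. The groups lay about 1 log2 unit apart with no overlap (difference 1.12, SE 0.09, 2.18-fold, limma adjusted p = 1.35e-05). A second probe set of Mrpl51 gave 0.87. Mrpl42 was at 6.73, 6.24 and 6.99 in Ly6C- F4/80high samples, against 5.53, 5.74 and 5.62 in Ly6C+ F4/80low samples. Its Ly6C- F4/80high arrays were spread more widely, with mouse 2 the lowest, and did not overlap the others (1.03, SE 0.16, limma adjusted p = 0.000841). Mrpl37, Mrpl40 and Mrpl48, also specific to mitochondria, had differences of 0.61 (SE 0.07), 0.68 (SE 0.08) and 0.67 (SE 0.09), and all 3 were called higher. Mrpl40 and Mrpl48 belong to the central protuberance of the large subunit, which touches the head of the small subunit. Mrpl38, another protein of that part, had 0.29 (SE 0.09), and its call was lost with the mouse as a block (limma adjusted p = 0.0516).

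Mrps36 had the largest difference of all members, but it is now known as a subunit of the 2-oxoglutarate dehydrogenase complex of the citric acid cycle and no longer counted as a ribosomal protein. It was at 6.70, 6.68 and 7.04 in Ly6C- F4/80high samples, against 5.61, 5.66 and 5.53 in Ly6C+ F4/80low samples (1.20, SE 0.10, 2.30-fold, limma adjusted p = 1.98e-05). No Ly6C- F4/80high array came near a Ly6C+ F4/80low array. RefSeq lists 3 pseudogenes of Mrps36 and 1 each of Mrpl23, Mrpl27 and Mrpl48, whose RNA the probes of these genes could also read.

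**Figure D3:**
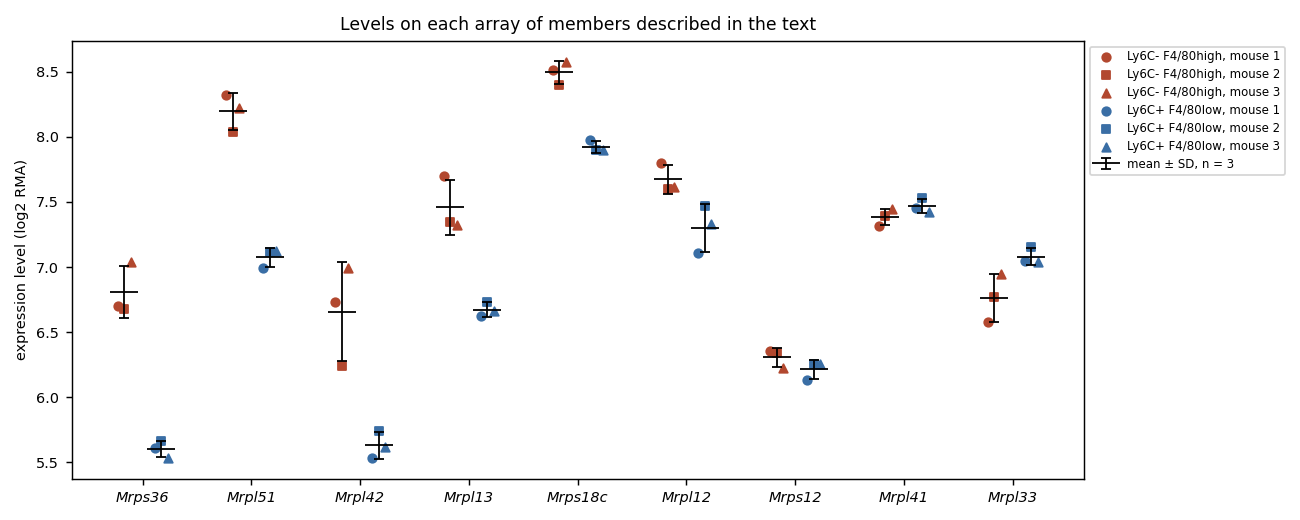
Level of 9 members on each array (y axis, log2 RMA), with Ly6C- F4/80high samples at left and Ly6C+ F4/80low samples at right of each pair, symbols for the 3 mice, and bars for mean ± SD (n = 3). Mrps36, Mrpl51, Mrpl42, Mrpl13 and Mrps18c show separate groups, Mrps12 and Mrpl41 overlap, and Mrpl33 is lower in the Ly6C- F4/80high samples.

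Several members with bacterial homologues were also among the larger differences. Mrpl13 was at 7.70, 7.35 and 7.32 in Ly6C- F4/80high samples, against 6.62, 6.73 and 6.66 in Ly6C+ F4/80low samples (0.79, SE 0.11, limma adjusted p = 0.000341), with mouse 1 the highest. Mrpl34 averaged 9.07 ± 0.11 in Ly6C- F4/80high samples and 8.38 ± 0.08 in Ly6C+ F4/80low samples (SD, n = 3 each, difference 0.69, SE 0.08, limma adjusted p = 0.000177). Neither overlapped. Mrpl27, which lies near the peptidyl transferase centre where peptide bonds are made, had 0.62 (SE 0.08) on the probe set used here. Its other probe set gave 0.32 and was not called (limma adjusted p = 0.0646 with all probe sets tested separately). Mrpl23, at the exit tunnel of the nascent chain, had 0.64 (SE 0.09). In the small subunit Mrps5, near the entry of the mRNA channel, had 0.61 (SE 0.07), and Mrps15 had 0.61 (SE 0.09). Mrps33, a protein specific to mitochondria, had 0.68 (SE 0.08). All 5 were called higher on the probe sets used here.

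The 3 copies of the bacterial protein bS18 occupy different places in mammalian mitochondrial ribosomes, Mrps18a in the large subunit and Mrps18b and Mrps18c in the small one. All 3 were called higher. Mrps18c was at 8.51, 8.40 and 8.58 in Ly6C- F4/80high samples, against 7.98, 7.90 and 7.90 in Ly6C+ F4/80low samples (0.57, SE 0.08, limma adjusted p = 0.000368). Mrps18b had 0.58 (SE 0.10) and Mrps18a 0.45 (SE 0.09), and neither showed overlap between the groups.

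Mrpl12 and Mrpl10 form the stalk of the large subunit, which recruits translation factors. Mrpl12 was at 7.80, 7.60 and 7.62 in Ly6C- F4/80high samples, against 7.10, 7.47 and 7.33 in Ly6C+ F4/80low samples (0.37, SE 0.11, limma adjusted p = 0.0218). Mouse 1 gave 0.70 and mice 2 and 3 gave 0.13 and 0.28, and the limma adjusted p was 0.184 with mouse 1 left out, 0.0838 with only its Ly6C- F4/80high array left out, 0.0698 with only its Ly6C+ F4/80low array left out and 0.0857 with mouse 3 left out. Mrpl10 had 0.34 (SE 0.09, limma adjusted p = 0.0137), and 0.0737 without mouse 3, 0.0622 without mouse 2, 0.0501 with mouse 2's Ly6C+ F4/80low array left out and 0.056 with mouse 1's Ly6C- F4/80high array left out. Mrpl45, which holds the ribosome to the inner membrane, had 0.48 (SE 0.12, limma adjusted p = 0.0122), 0.0731 without mouse 1 and 0.0799 without mouse 3. Mrpl58, a peptidyl-tRNA hydrolase built into the large subunit, had 0.50 (SE 0.08) and was called higher under every alternative.

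The members of highest level were Mrps21, Mrpl23 and Mrps15, all called higher. Mrps21, a small subunit protein, was at 10.15, 9.97 and 10.44 in Ly6C- F4/80high samples, against 9.76, 9.60 and 9.70 in Ly6C+ F4/80low samples (0.50, SE 0.11, limma adjusted p = 0.0079). Without mouse 3 it had 0.38 and was not called (limma adjusted p = 0.0554). Those of lowest level were Mrps30, Mrps17 and Mrpl44. Mrps30, which sits in the large subunit despite its name, was at 5.54, 5.54 and 5.86 in Ly6C- F4/80high samples and under background on all 3 Ly6C+ F4/80low arrays, so it was at least 1.15-fold higher (limma adjusted p = 0.0479). With all probe sets tested separately its limma adjusted p was 0.0511. Mrps17 and Mrpl44 were not called, at 0.30 (SE 0.13) and 0.21 (SE 0.08).

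Mrpl33, a small protein of the large subunit, was the only member called lower. It was at 6.58, 6.77 and 6.95 in Ly6C- F4/80high samples, against 7.05, 7.15 and 7.04 in Ly6C+ F4/80low samples (-0.31, SE 0.10, limma adjusted p = 0.0351). The groups did not overlap, but mouse 3 differed by only -0.09. The call was lost with arrays scaled to a common median (limma adjusted p = 0.0975) and in 7 of the 9 removals of an array or a mouse. Mrps6 was also lower in all 3 mice but was not called (-0.13, SE 0.07). Mrps12, a protein of the decoding site, had 0.09 (SE 0.08, limma adjusted p = 0.385), and its groups overlapped. Mrpl41 had -0.08 (SE 0.08, limma adjusted p = 0.415) on the probe set used here, and -0.31 on its other probe set (limma adjusted p = 0.0226).

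The other genes of mitochondrial translation were counted from lists. Of the 15 translation factors and mRNA-binding proteins 13 were called higher (86.7%) and 0 lower, where 19.5% and 14.3% of all genes were. The median of the 15 was 0.47. Tufm, the elongation factor that brings aminoacyl-tRNA, was at 8.33, 8.39 and 8.22 in Ly6C- F4/80high samples, against 7.56, 7.56 and 7.61 in Ly6C+ F4/80low samples (0.74, SE 0.08, limma adjusted p = 6.4e-05). The groups were far apart. Guf1, a GTPase related to bacterial LepA, had 1.10 (SE 0.15), and the initiation factor Mtif2 had 0.72 (SE 0.08). Oxa1l, which inserts proteins into the inner membrane, and the exchange factor Tsfm were not called, at 0.21 (SE 0.08) and 0.24 (SE 0.09).

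Of 26 genes of mitoribosome assembly and rRNA modification 11 were called higher (42.3%) and 1 lower, with a median of 0.16. The share called higher was 19.5% over all genes and 33.9% over the 9969 genes of highest level. Tfb1m, which methylates the small subunit's rRNA, had 0.91 (SE 0.11), Fastkd2, which binds the large subunit's rRNA, 0.76 (SE 0.08), and the assembly factor Rbfa 0.65 (SE 0.10). The helicase Ddx28 was called lower at -0.35 (SE 0.08), a call lost without mouse 2 (limma adjusted p = 0.0694). Of 4 mitochondrial ribosomal proteins with other names, Chchd1 (0.57, SE 0.12) and Ptcd3 (0.35, SE 0.08) were called higher, and neither was called without mouse 1. Dap3, a GTP-binding protein of the small subunit, had 0.20 (SE 0.07, limma adjusted p = 0.0607).

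Of 19 genes of mitochondrial aminoacyl-tRNA synthesis 9 were called higher (47.4%) and 1 lower, with a median of 0.22. Without mouse 3 the count called higher was 4, where 13.4% of all genes were. When only that mouse's Ly6C+ F4/80low array was left out the count was 5, where 16.7% of all genes were. The synthetases Rars2 and Iars2 had 0.92 (SE 0.09) and 0.74 (SE 0.07). Mars2 was called lower at -0.35 (SE 0.11, limma adjusted p = 0.0363), and not with arrays scaled to a common median. Of 10 genes of mitochondrial DNA replication and transcription 4 were called higher (40.0%) and 0 lower, with a median of 0.15. Over all genes the shares were 19.5% called higher and 14.3% lower. Among the 9969 genes of highest level they were 33.9% and 15.6%. Tfam, which packages mitochondrial DNA, was called higher (limma adjusted p = 0.0176) at levels near background. Its Ly6C- F4/80high mean lay 1.11-fold above background, and all its Ly6C+ F4/80low arrays lay under it. In mouse 2 the Ly6C- F4/80high array was also under background, at 5.43 against 5.39. Tfb2m (0.44, SE 0.09) and Tefm (0.39, SE 0.07), for initiation and elongation of transcription, were called higher, and the polymerase Polrmt was not (0.06, SE 0.08).

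**Figure D4:**
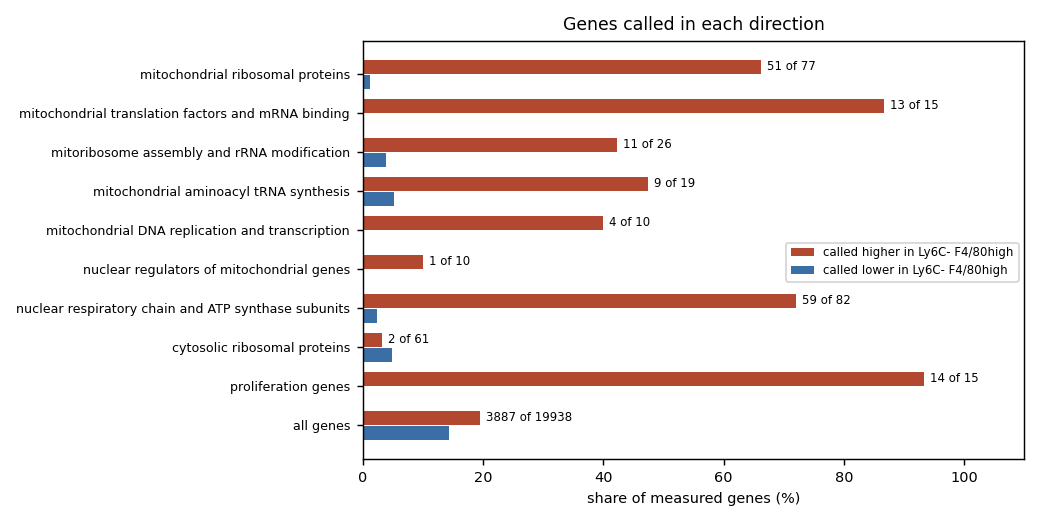
Share of measured genes called higher and lower in Ly6C- F4/80high samples (x axis, %) for the members, each gene list and all genes, with the number called higher beside each upper bar. The members (51 of 77), the translation factors (13 of 15), the respiratory chain and ATP synthase (59 of 82) and the proliferation genes (14 of 15) lie far above all genes (3887 of 19938), and the cytosolic ribosomal proteins (2 of 61) below.

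The nuclear subunits of the respiratory chain and ATP synthase had 59 of 82 called higher and 2 lower, with a median of 0.36. Over all genes 19.5% were called higher and 14.3% lower. Cox7a1, a subunit of cytochrome c oxidase, had 1.30 (SE 0.07), Ndufs5 of complex I 0.85 and Cyc1 of complex III 0.66. The 2 called lower were Cox8c (-0.37, SE 0.12) and Cox6b2 (-0.25, SE 0.08). Of 61 proteins of the cytosolic ribosome 2 were called higher and 3 lower, with a median of 0.00, and with the mouse as a block 1 was called higher and 0 lower. Over all alternatives 0 to 6 were called lower. Of 15 proliferation genes 14 were called higher, with a median of 0.99, among them the replication helicase subunit Mcm6 (1.83, SE 0.10) and Ccna2, the cyclin of S phase, which was at least 3.52-fold higher. The summed linear level of the proliferation genes was 4063 to 4556 in Ly6C- F4/80high samples and 2792 to 3073 in Ly6C+ F4/80low samples, and that of the members was 18930 to 20048 in Ly6C- F4/80high samples and 14822 to 15326 in Ly6C+ F4/80low samples. The part of proliferation in the members' difference was not tested.

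The genes of NRF1, GABP and YY1 differed little. Of 10 nuclear regulators of mitochondrial genes, with a median of -0.03, 1 was called higher, where 19.5% of all genes were. This was the coactivator Ppargc1b (0.30, SE 0.08). It was not called without mouse 1 or without mouse 2, where 0 were. With the mouse as a block 3 were, with Myc (0.30) and Ppargc1a added, the second of which lay under background on all 6 arrays. Nrf1 had -0.19 (SE 0.08, limma adjusted p = 0.0967), and was called lower after quantile normalization (limma adjusted p = 0.0254). Gabpa, which encodes the DNA-binding subunit of GABP, had 0.02 (SE 0.08) and Yy1 0.00. Members with the YY1 motif had a median difference of 0.43, and those without it 0.33. The medians were 0.45 with and 0.33 without the ETS motif, and 0.26 with and 0.41 without the NRF1 motif. For the exact NRF1 form they were 0.11 and 0.37, and for the SP1 GC box 0.58 and 0.33. For the E box they were 0.29 and 0.36, and for the TATA box 0.36 and 0.34. Among the 68 members with a promoter 43 were called higher, among them 8 of the 8 with the YY1 motif, 9 of the 12 with the ETS motif and 7 of the 13 with the NRF1 motif. The count was 1 of 3 for the exact NRF1 form, 10 of 13 for the SP1 GC box, 4 of 5 for the E box and 3 of 5 for the TATA box.

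Many members start close to another gene on the opposite strand. Such a head-to-head neighbour, with starts at most 1000 bases apart, was found for 26 of 68 members (38.2%), and for 12.3% of the 27025 genes of the table. Of the 22 measured neighbours that are no members 9 (40.9%) were called higher and 0 lower, with a median of 0.13. Of all genes 19.5% were called higher and 14.3% lower, with a median of -0.06. Of the 9969 genes of highest level 33.9% were called higher and 15.6% lower by the same calls, with a median of 0.09. Whether neighbours share the members' difference was not tested. Mrpl51 starts 614 bases from Ncapd2, which encodes a condensin subunit and had 0.84. Mrpl47 (0.23) starts beside Ndufb5, a complex I subunit with 0.57, and Mrps27 (0.39) beside Ptcd2 with 0.55. Other pairs differed, as Mrpl41 (-0.08) beside Pnpla7 (0.82), and Mrps5 (0.61) beside Zfp661 (-0.11). Mrpl46 and Mrps11 are both members and start 42 bases apart. Mrps11 was called higher (0.41, SE 0.08), and Mrpl46 was not (0.36, SE 0.16), with 0.87, 0.09 and 0.11 in mice 1, 2 and 3.

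**Figure D5:**
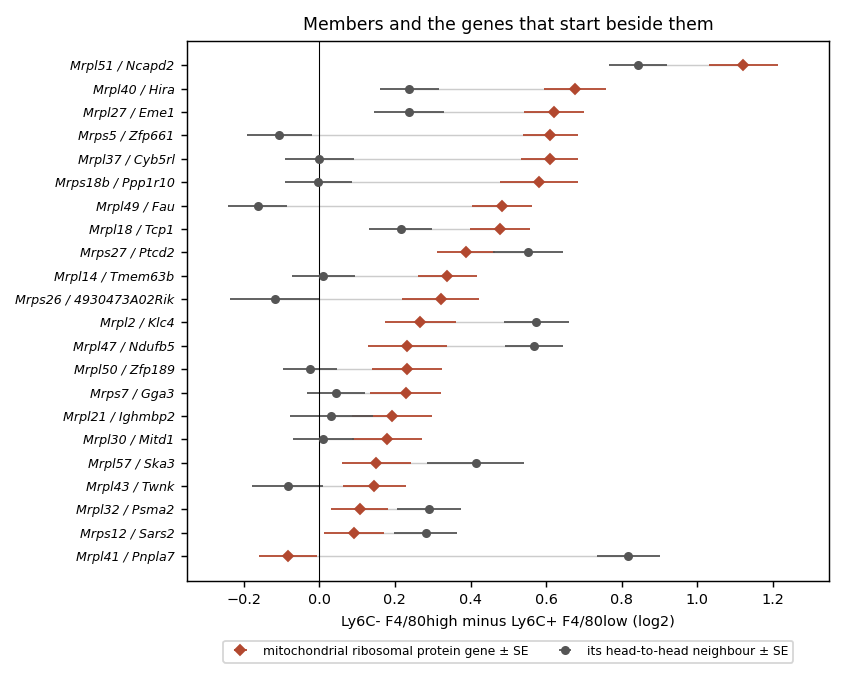
Difference (x axis, log2, Ly6C- F4/80high minus Ly6C+ F4/80low) of 22 members and of the gene that starts beside each on the opposite strand, as estimates with their SE. Neighbours lie between -0.16 (Fau, beside Mrpl49) and 0.84 (Ncapd2, beside Mrpl51).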

How the data were processed

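RNA of 6 sorted samples was profiled on Affymetrix arrays, 1 per sample. The deposited values are on a log2 scale, judged from their range, and the authors made them with RMA, per the submitters' processing notes. RMA corrects background, normalizes across arrays and summarises probe sets, and it compresses low signals. The sources used here do not give its software. Arrays give no read depth, and their number limits the precision.

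Of 35556 probe sets 21789 carried a single gene symbol in the annotation. The functions lmFit and eBayes of limma 3.58.1 (R 4.3.3, two-sided, no filter) were run on 19938 genes with Benjamini-Hochberg adjustment over all of them, and were tested on simulated data. Where no array of a subset reached background, its arrays were set to it and the fold is a bound.

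Each mouse gave both subsets, so mouse numbers pair the arrays. Across genes, the deviations of a mouse's arrays from the subset means had correlations of 0.03, -0.08 and 0.09. No source states a paired test, and the mouse as a replicate block was an alternative. Others were 3 scalings, filters on level, other uses of probe sets, priors, array weights, a random block, and removal of every array or mouse in turn.

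Members, lists, motifs and named genes were chosen with earlier results of these data known. Named members are the 12 largest called differences per direction with the same sign in all 3 mice, the 3 highest and 3 lowest by level, 10 fixed members, and those whose call changed with the scaling or the block. Genes named from a pathway list were taken from its up to 3 called genes of largest difference per direction, besides 7 fixed genes. Not all of them are printed. Mrps6, Mrpl46, Mrpl58, Mrps11, Mrps27, Oxa1l, Tsfm, Yy1, Myc, Ppargc1a and the head-to-head neighbours were added after their values were seen.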

Additional observations from a re-analysis of the deposited data

How the results depend on the processing

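No member reversed its direction past the threshold under any alternative run. Of the 51 members called higher 26 were called under every alternative, and 39 under all but the removals of arrays or mice. The count called higher was 42 after quantile normalization (17.9% of all genes), 44 after cyclic loess (18.3%) and 57 at a common median (24.0%), and removals gave 29 (13.4%, without mouse 3) to 50 (3597 of the 19938 genes). The count called lower was 0 at a common median and 0 to 1 under removals. Over all genes 1737 were called lower at a common median, and 1321 to 3290 under removals. The median difference of the members was 0.31 after quantile normalization, 0.32 after cyclic loess and 0.42 at a common median, and removals gave 0.33 to 0.40. For the large subunit these were 0.27, 0.28 and 0.42, with 0.35 for the mean of probe sets and 0.31 to 0.36 under removals. For the small subunit the median was 0.44 at a common median, and 0.34 to 0.40 under removals. For the bacterial homologues it was 0.26, 0.26 and 0.39 under the 3 scalings, and 0.29 to 0.34 under removals. For proteins specific to mitochondria removals gave 0.34 to 0.40. With the mouse as a replicate block 48 members were called higher, 47 of them shared. Mrpl36, Mrpl38, Mrps10 and Mrps26 lost their calls (limma adjusted p from 0.0516 to 0.0657) and Mrps2 gained one (0.0479). The cause of these shifts was not tested.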

Other observations

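Mrpl53 was measured only by a probe set shared with Ccdc142 and is therefore not among the members. That probe set had a difference of 0.22 (SE 0.08, limma adjusted p = 0.109 over all probe sets). Mrpl47 had 0.23 (limma adjusted p = 0.114) on its brighter probe set, and the means of its other probe set lay under background in both subsets. Mrpl27 had 0.62 on the brighter and 0.32 on the other (limma adjusted p = 0.0646).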
